A study of Homo sapiens with 24 samples.

Results

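The genes described here are 10 components of the circadian clock: BHLHE40, BHLHE41, PER1, PER2, PER3, CRY1, CRY2, CLOCK, NR1D1 and NR1D2. The set was chosen by the peak calls at BHLHE40, which had a binding site in all 11 peak lists, out of 20098 protein-coding genes on chromosomes 1 to 22 and X, so the presence of peaks at BHLHE40 is described below without a test. The lists come from chromatin immunoprecipitation and sequencing (ChIP-seq) with an antibody to the Flag tag in MCF-10A-ER-Src cells. MCF-10A is a non-transformed human breast epithelial line, and ER-Src is the v-Src oncoprotein fused to the ligand-binding domain of the estrogen receptor. The cells carried retrovirally expressed S100A8-Flag or S100A9-Flag, which are small calcium-binding cytokines that the study also observed in the nucleus and that have no DNA binding domain of the usual kind. Cells received ethanol (EtOH, nontransformed) or 1 uM 4-hydroxy-tamoxifen (TAM, which activates v-Src and leads to transformation) for 24 hours. There were 2 biological replicates of S100A8 in EtOH and 3 each of S100A8 in TAM, S100A9 in EtOH and S100A9 in TAM. Both tagged proteins were expressed ectopically in every library, and no ChIP from cells without the tag was used here.

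A peak is an interval that the peak caller found enriched over the sample's input chromatin, and its summit is the highest point. Peaks were kept where q, the false discovery rate of the peak, was at most 1e-07 (a -log10 q of at least 7). A peak was assigned to a gene when its summit lay in the gene body or within 50 kb of it, and was called a promoter peak when a transcription start site (TSS) lay at most 1500 bp downstream or 250 bp upstream of the summit along the gene. The EtOH lists then held 1853 to 4609 peaks and the TAM lists 21518 to 40735. The lists carry no read numbers, so sequencing depth is unknown. The number of peaks per list moved with treatment beside every comparison below. Positions are on hg19.

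In the clock, CLOCK pairs with BMAL1 and activates genes through E-boxes in DNA. The PER and CRY proteins are made from such genes and repress CLOCK-BMAL1, which closes the main feedback loop. NR1D1 and NR1D2 (the REV-ERB nuclear receptors) are also switched on through E-boxes and repress BMAL1 through AGGTCA elements. BHLHE40 and BHLHE41, also known as DEC proteins, are basic helix-loop-helix repressors that compete for E-boxes.

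BHLHE40 (ENSG00000134107, chr3:5021122-5027008, plus strand) had a promoter peak in 11 of 11 libraries, and its promoter site was among the widest in the genome-wide set. Sites common to replicates were formed by keeping peaks found in at least 2 replicates of a condition and merging them over the 4 conditions where they overlapped by 1 bp, which gave 30322 union sites. The BHLHE40 promoter site spanned chr3:5019653-5021795 and was 2143 bp wide, and 25 union sites were wider. A merged site can grow with the number of peaks joined, and this gene was chosen by its peaks in every list. The part of merging in the width was not tested. Its strongest summit lay at -654 bp from the TSS, over the antisense long noncoding RNA BHLHE40-AS1. Summits of 10 libraries fell between -717 and -538 bp, and that of S100A9 EtOH replicate 1 at -182 bp. The summit sequence is given because the summits of 9 libraries lay within 100 bp of it, those of S100A8 EtOH replicate 2 and S100A9 EtOH replicate 1 lying outside, and the site at +7546 bp because it was the other BHLHE40 site called in 10 libraries. In the sequences below, printed from the plus strand within 100 bp of the summit, capitals mark matches to the motifs searched.
BHLHE40 promoter, chr3:5020368-5020568: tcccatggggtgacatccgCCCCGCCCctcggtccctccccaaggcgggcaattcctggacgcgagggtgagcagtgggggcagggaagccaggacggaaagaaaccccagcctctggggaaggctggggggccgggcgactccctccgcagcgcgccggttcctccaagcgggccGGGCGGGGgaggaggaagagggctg
BHLHE40 downstream, chr3:5028568-5028768: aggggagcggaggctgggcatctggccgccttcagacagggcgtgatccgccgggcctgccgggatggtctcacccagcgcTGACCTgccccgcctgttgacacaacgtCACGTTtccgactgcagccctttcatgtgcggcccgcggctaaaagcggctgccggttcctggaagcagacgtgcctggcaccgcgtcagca
The promoter window holds 2 matches to CCCCGCCC, the element bound by KLF and SP1 factors, and no E-box. The downstream window holds 1 match to CACGTT, a variant E-box, and 1 to AGGTCA on the minus strand.

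Fold enrichment over input at the BHLHE40 promoter site was 9.74 and 11.9 in the S100A8 EtOH replicates and 7.89, 12.9 and 10.3 in the S100A9 EtOH replicates. In TAM it was 18.2, 20.7 and 10.4 for S100A8 and 20.7, 16.1 and 12.7 for S100A9. The TAM values were mostly the higher ones, but the groups overlapped, since S100A8 TAM replicate 3 lay below 2 EtOH libraries. Fold enrichment depends on each library's input and depth, so its percentile among the peaks of the same library was compared. The mean percentile was 80.0 in EtOH and 95.8 in TAM, and the difference with each protein weighted equally was 14.2. These values are given without a test, since the peaks at this site chose the set. The median difference over the 105 union sites called in all libraries was 16.4, above that of the BHLHE40 site, on TAM lists that were the longer ones, and the part of list length in it was not tested. Of the 105, 0 passed the exact permutation test after adjustment (0% called, 15 at an unadjusted p under 0.05). The smallest p of 0.01 had an adjusted p of 0.2625 there, so no site could pass. In mean percentile over all libraries the BHLHE40 site ranked 4 of 105.

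BHLHE40 carried further sites on both sides of the promoter. Of its 10 union sites, 4 were called in all 6 TAM libraries, 1 of them the promoter site by which it was chosen. The site in its intron at +1022 bp was called in 3 EtOH and 5 TAM libraries, with a median fold enrichment of 9.57 and 9.87. The site at +7546 bp lay outside protein-coding and named noncoding genes. It was called in 4 EtOH and 6 TAM libraries, with median fold enrichments of 7.76 and 10.8. The sites at -3134 and -2107 bp, over BHLHE40-AS1, were called in 6 TAM and 0 EtOH libraries. The sites at +15706 and +47180 bp were called in 6 libraries each, of which 1 and 2 were EtOH. No TSS of another protein-coding gene was nearer to any of its 10 sites.

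**Figure D1:**
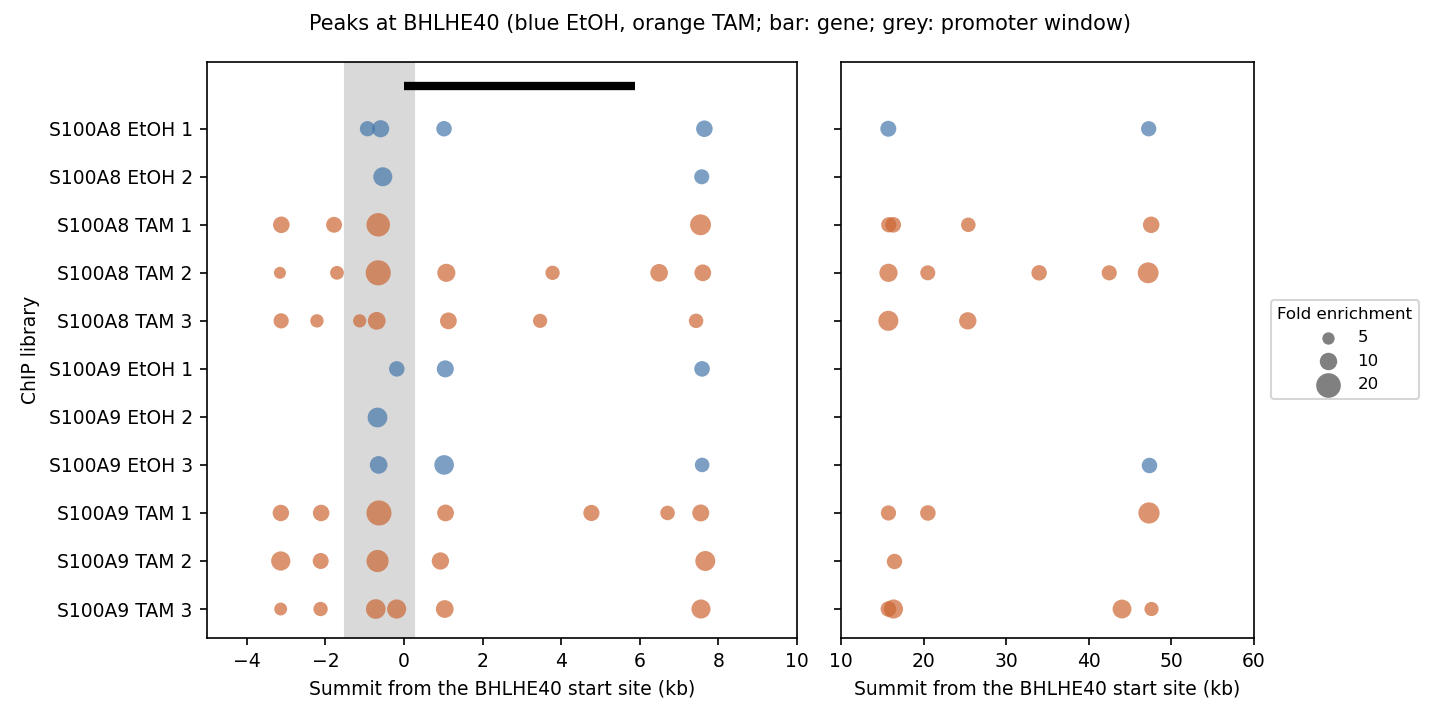
Peak summits at BHLHE40 by library, as distance in kb from the TSS (note the break at 10 kb and the change of scale), with point area proportional to fold enrichment, EtOH libraries in blue and TAM libraries in orange. The promoter window is grey and holds a summit in each of the 11 libraries, and 1 peak of S100A9 EtOH replicate 3 at -23522 bp lies outside the plotted range.

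Peaks at BHLHE40 numbered 6 and 2 in S100A8 EtOH, 8, 12 and 9 in S100A8 TAM, 3, 1 and 5 in S100A9 EtOH, and 10, 6 and 10 in S100A9 TAM. The highest EtOH count and the lowest TAM count were both 6, and within each protein the groups did not overlap. Under EtOH, S100A8 averaged 4.00 ± 2.83 peaks (SD, n = 2), against 9.67 ± 2.08 under TAM (SD, n = 3). S100A9 averaged 3.00 ± 2.00 peaks (SD, n = 3) under EtOH, against 8.67 ± 2.31 under TAM (SD, n = 3). The number of protein-coding genes with more peaks than BHLHE40 was 25 and 971 in S100A8 EtOH and 213, 824 and 85 in S100A9 EtOH. In TAM it was 1383, 162 and 304 for S100A8 and 417, 1997 and 1390 for S100A9, so the treatments overlapped. At least 1 peak in each of the 11 libraries, which is how BHLHE40 was chosen, was found at 7.09% of the 18126 genes tested. A promoter peak in each of the 11 was found at 0.908% of the 10794 genes tested for promoter peaks, 98 in all.

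The genes whose counts across the 11 libraries were most like those of BHLHE40, by the sum of absolute differences in peak number, were PKLR (10), CLK2 (11), HCN3 (11), GIPR (12) and SNRPD2 (12). PKLR, CLK2 and HCN3 share peaks of one region of chromosome 1, and GIPR and SNRPD2 of one region of chromosome 19, so these are 2 regions and not 5 independent genes. None of these 5 had a promoter peak in 11 libraries. CLK2 had one in 7, SNRPD2 in 6, HCN3 in 4, GIPR in 2 and PKLR in 0.

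The question of the treatment comparison was where the tagged proteins sat in nontransformed and transformed cells. Of the 9 clock genes other than BHLHE40, 8 were called higher in TAM than in EtOH. CRY1 also had a difference above 0 (1.67) but did not pass the test. BHLHE40 is left out of this count, since its peak calls chose the set. Across all genes tested, 67.6% were called higher in TAM (12246 of 18126) and 0 lower, so a call was the common result and the share among clock genes is to be read against it. The test permuted treatment within each protein over 200 arrangements, and each of the 8 genes had the smallest p this allows, 0.01 (adjusted p = 0.0219, exact permutation test, two-sided). The median difference was 3.00 peaks per library over the 9 clock genes and 2.42 over all genes tested. With peaks expressed per 10000 of the library, 0 genes passed. PER3 (0.930 peaks per 10000, exact permutation p = 0.01, adjusted p = 0.0831) and CRY2 (1.07, p = 0.03) were higher in TAM before adjustment. At the smallest p of 0.01 no gene could pass on this scale. PER3 had 0 EtOH peaks and could only differ upward, and CRY2 had a peak in 1 EtOH library. Both passed the filter of 2 libraries only through TAM, so these p-values are no support for a difference. PER1, CRY1, CLOCK and NR1D2 turned to differences below 0. BHLHE40 turned to -5.195, and its peaks in every list, the short EtOH lists included, are how it was chosen. On that scale 3979 of the 18126 genes tested had an unadjusted p under 0.05. Of all 18126, 2954 were higher and 1025 lower in TAM at that level (5.65% lower). When every library was cut to its strongest 1853 peaks, 0 clock genes were called.

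**Figure D2:**
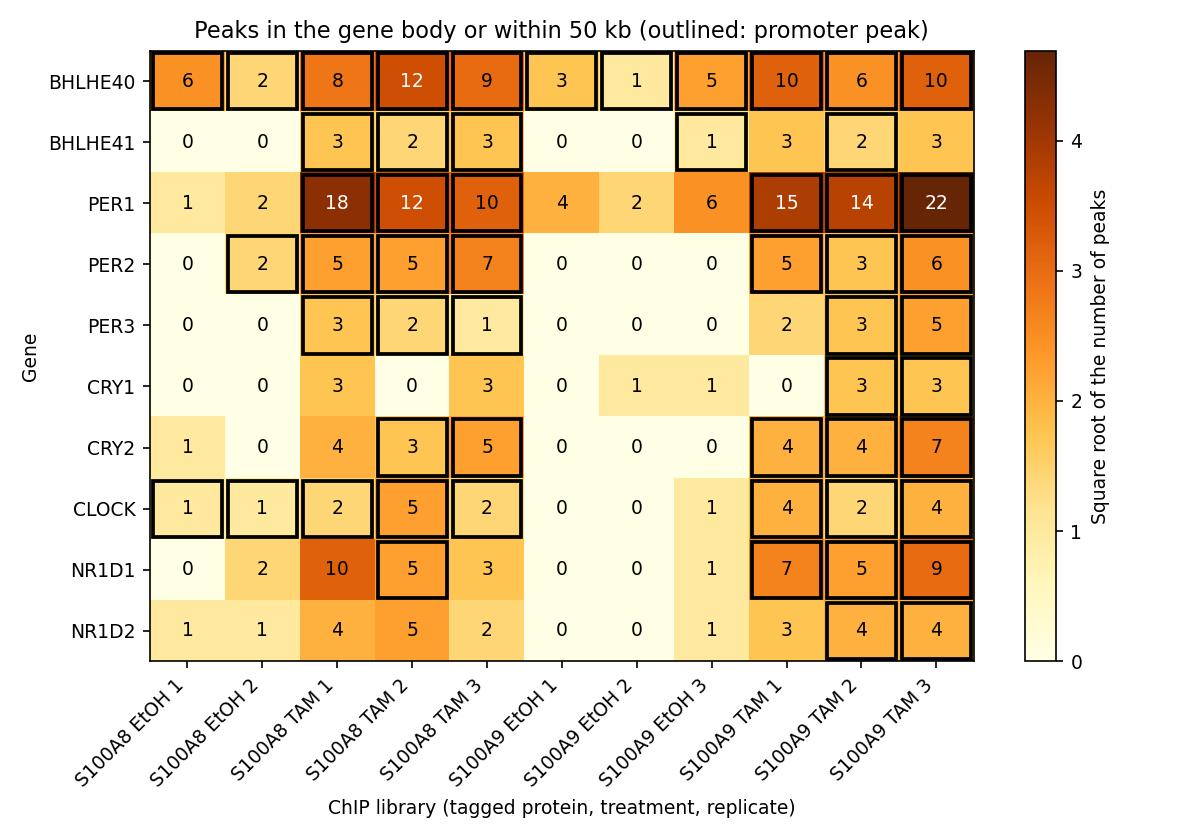
Number of peaks (written and coloured, square root scale) in the gene body or within 50 kb of each clock gene in each of the 11 libraries, with a black outline where the library had a promoter peak. BHLHE40 is outlined in every column, and the counts of PER1 run from 1 to 6 in EtOH and from 10 to 22 in TAM.

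Among the repressors, BHLHE41 (chr12:26272963-26277970, minus strand), the relative of BHLHE40, had 0 and 0 peaks in S100A8 EtOH and 3, 2 and 3 in TAM. For S100A9 it had 0, 0 and 1 in EtOH and 3, 2 and 3 in TAM. The EtOH and TAM counts did not overlap (difference 2.50). Its promoter peak was found in 3 S100A8 TAM libraries, S100A9 EtOH replicate 3 and S100A9 TAM replicate 2. The promoter site lay at -1171 bp, in an intron of the neighbouring gene SSPN, and the other 2 of its 3 sites were nearer to the TSS of SSPN. Counted only where its own TSS was nearest, BHLHE41 differed by 0.833 (exact permutation p = 0.1).

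PER1 (chr17:8043790-8059824, minus strand), a light- and signal-responsive repressor, had the largest difference in peak number of the 10 clock genes. Its counts were 1 and 2 in S100A8 EtOH and 18, 12 and 10 in TAM, and 4, 2 and 6 in S100A9 EtOH and 15, 14 and 22 in TAM (difference 12.4). Its TAM counts lay above its EtOH counts in every library. The PER1 window holds the TSSs of several other genes, and 7 of its 17 union sites were nearest to a PER1 TSS. Counting all peaks with a PER1 TSS as the nearest, the numbers were 0 and 2, then 5, 5 and 5 for S100A8, and 1, 1 and 2, then 5, 4 and 9 for S100A9 (difference 4.33, exact permutation p = 0.01, adjusted p = 0.0525). Promoter peaks were found in 6 of 6 TAM and 0 of 5 EtOH libraries, a pattern shared by 5.27% of genes tested (exact permutation p = 0.01, adjusted p = 0.19). In the unfiltered lists, a promoter peak of PER1 was present in 5 of 5 EtOH libraries as well, so that its absence in EtOH rests on the q threshold.

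The PER1 site called most often lay in an intron, 2096 bp from the 5′ end of the gene (chr17:8057437-8058062), and had a peak in 4 EtOH and 6 TAM libraries. A read-through transcript, ENSG00000263620, overlaps it. Fold enrichment was 10.8 in S100A8 EtOH replicate 2 and 8.90, 8.56 and 12.8 in S100A9 EtOH. In TAM it was 8.45, 9.85 and 13.6 for S100A8 and 16.9, 17.5 and 19.2 for S100A9. All 3 S100A9 TAM libraries lay above the EtOH libraries, while the S100A8 TAM libraries overlapped them. This sequence is given because no other site of a PER gene was called in as many libraries.
PER1 intron, chr17:8057628-8057828: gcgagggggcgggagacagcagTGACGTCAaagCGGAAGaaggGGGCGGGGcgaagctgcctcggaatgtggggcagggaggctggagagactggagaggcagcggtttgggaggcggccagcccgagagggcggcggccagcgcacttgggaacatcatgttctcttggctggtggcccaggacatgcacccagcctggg
Its capitals mark TGACGTCA, the cAMP response element (CRE), then CGGAAG, the ETS element, then CCCCGCCC on the minus strand. CRE matches were present within 100 bp of the summit at 2.68% of promoter and 0.503% of other union sites, and at 2 of the 61 sites of the clock genes.

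**Figure D3:**
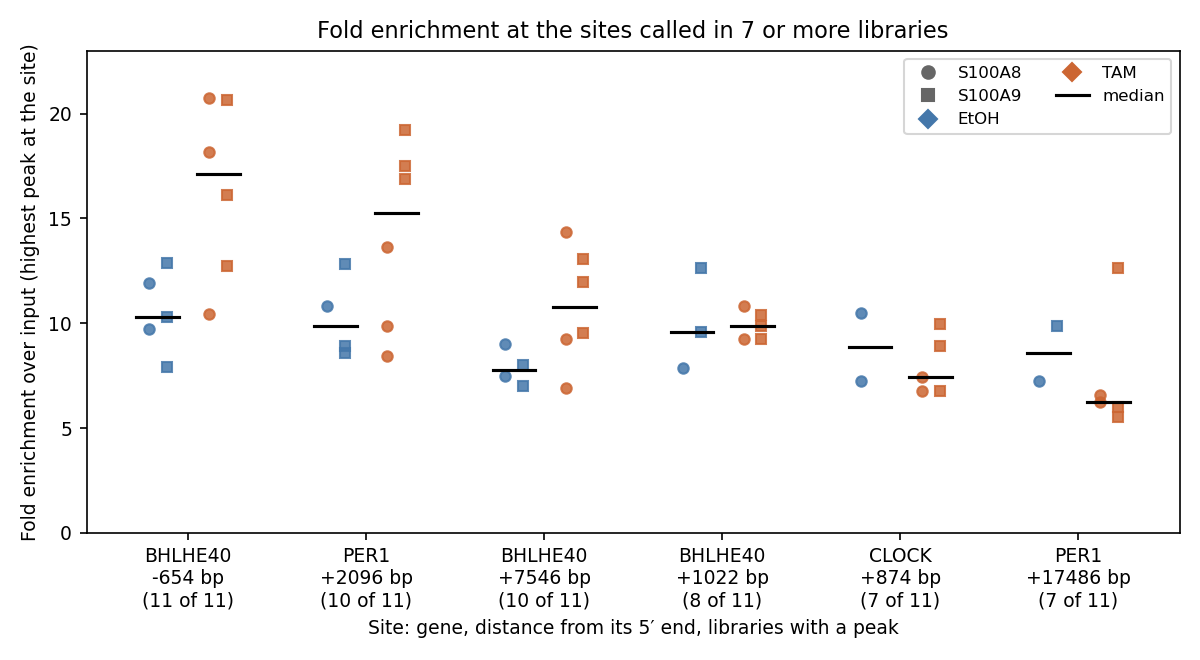
Fold enrichment over input in each library with a peak, at the 6 sites of the clock genes called in 7 or more of the 11 libraries, labelled by gene and distance from its 5′ end. Circles are S100A8, squares S100A9, blue EtOH and orange TAM, and the black line is the median over libraries with a peak, which at the BHLHE40 promoter was 10.3 in EtOH and 17.1 in TAM.

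PER2 (chr2:239152685-239198743), a core repressor, had 0 and 2 peaks in S100A8 EtOH and 5, 5 and 7 in TAM, and 0, 0 and 0 in S100A9 EtOH and 5, 3 and 6 in TAM (difference 4.67). Its promoter peak was found in 6 TAM libraries and in S100A8 EtOH replicate 2. The signal lay at 2 promoter sites, at -241 bp and 1283 bp from the 5′ end, each called in 5 libraries. PER3 (chr1:7844351-7905237), a PER family member, had 0 peaks in each of the 5 EtOH libraries, 3, 2 and 1 in S100A8 TAM and 2, 3 and 5 in S100A9 TAM (difference 2.67). Its promoter peak was found in 5 TAM libraries and in no EtOH library, and in 1 EtOH library of the unfiltered lists.

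The cryptochromes repress together with the PER proteins. CRY1 (chr12:107385142-107487327) had 0 and 0 peaks in S100A8 EtOH and 3, 0 and 3 in TAM, and 0, 1 and 1 in S100A9 EtOH and 0, 3 and 3 in TAM. These groups overlapped (difference 1.67, exact permutation p = 0.12, adjusted p = 0.139). Both of its union sites lay at promoters of other genes, TMEM263 and MTERF2, and none was nearest to a CRY1 TSS, although single peaks fell in the CRY1 promoter in S100A9 TAM replicates 2 and 3. CRY2 (chr11:45868669-45904799) had 1 and 0 peaks in S100A8 EtOH and 4, 3 and 5 in TAM, and 0, 0 and 0 in S100A9 EtOH and 4, 4 and 7 in TAM, without overlap (difference 4.25). Its promoter peak was found in 5 TAM libraries and in no EtOH library, and in 2 EtOH libraries of the unfiltered lists.

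CLOCK (chr4:56294070-56413076), the activator, had 1 and 1 peaks in S100A8 EtOH and 2, 5 and 2 in TAM, and 0, 0 and 1 in S100A9 EtOH and 4, 2 and 4 in TAM (difference 2.50). Its promoter peak was present in both S100A8 EtOH libraries, in none of S100A9 EtOH and in 6 of 6 TAM libraries, which after BHLHE40 was the widest spread of the set. The site called most often lay 874 bp from the 5′ end, next to an internal TSS (chr4:56411888-56412391). Fold enrichment there was 10.5 and 7.23 in S100A8 EtOH, and ranged from 6.78 to 9.94 in the 5 TAM libraries with a peak, so TAM values were within the EtOH range or just below it.
CLOCK promoter, chr4:56412102-56412302: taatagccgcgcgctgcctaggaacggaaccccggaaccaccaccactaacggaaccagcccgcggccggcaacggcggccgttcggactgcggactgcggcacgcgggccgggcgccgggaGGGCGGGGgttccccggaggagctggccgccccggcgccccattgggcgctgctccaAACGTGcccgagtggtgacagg
The capitals mark CCCCGCCC and the variant E-box CACGTT, both on the minus strand. At the deposited threshold, with no further filter on q, CLOCK also had a promoter peak in 5 of 5 EtOH libraries.

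NR1D1 (chr17:38249046-38256842), encoding REV-ERB alpha, had 0 and 2 peaks in S100A8 EtOH and 10, 5 and 3 in TAM, and 0, 0 and 1 in S100A9 EtOH and 7, 5 and 9 in TAM (difference 5.83). Its TAM counts lay above its EtOH counts, with S100A8 TAM replicate 3 the nearest to them. NR1D2 (chr3:23986777-24022108), encoding REV-ERB beta, had 1 and 1 peaks in S100A8 EtOH and 4, 5 and 2 in TAM, and 0, 0 and 1 in S100A9 EtOH and 3, 4 and 4 in TAM (difference 3.00). Promoter peaks were found in 4 TAM libraries for NR1D1 and in 2 for NR1D2, with none in EtOH. In the unfiltered lists they were present in 2 EtOH libraries for each receptor, and in 6 TAM libraries for NR1D1 and 2 for NR1D2. For both receptors most sites lay nearer to other genes: 3 of 7 NR1D1 sites and 2 of 5 NR1D2 sites were nearest to the receptor's own TSS.

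NR1D2 had an intronic site next to its promoter that held several E-boxes. It was picked out after its sequence was seen and is printed for that reason.
NR1D2 intron, chr3:23987327-23987527: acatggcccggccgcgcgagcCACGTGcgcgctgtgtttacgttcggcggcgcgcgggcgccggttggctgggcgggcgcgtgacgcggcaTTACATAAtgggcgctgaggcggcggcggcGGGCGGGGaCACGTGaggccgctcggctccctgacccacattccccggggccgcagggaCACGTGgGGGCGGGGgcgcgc
The window, 650 bp from the 5′ end, holds 3 matches to the E-box CACGTG, 2 to CCCCGCCC and 1 to the D-box TTATGTAA. It had a peak in S100A8 EtOH replicate 2 (fold enrichment 8.13) and in 4 TAM libraries (7.54 to 11.2).

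Over all 61 union sites of the clock genes, 17 (27.9%) held an E-box CACGTG, a variant E-box CACGTT or a D-box (TTATGTAA or TTACGTAA) within 100 bp of the summit, searched on both strands. The share over all 30322 union sites was 10.2%. The motifs were counted without a test, and neighbouring sites of one gene are not independent. Of the 61 sites, 32 had a TSS of the clock gene as the nearest. CACGTG was found at 6 sites of BHLHE41, PER1, CRY2, NR1D1 and NR1D2, namely at 2 of 25 sites in promoters and 4 of 36 elsewhere. The shares over all union sites were 7.77% and 4.60%. Of these 6 sites, the BHLHE41 site was nearest to a TSS of SSPN and the CRY2 site, at -42090 bp, to one of SLC35C1. The NR1D1 site at -12749 bp was nearest to MSL1. CACGTT was found at 6 of the 25 promoter sites and 5 of the 36 others, against 4.01% and 4.11%. AGGTCA was found at 1 of 25 and 5 of 36, against 6.79% and 13.2%. The AP-1 element TGACTCA, the most frequent of these motifs away from promoters (34.6% of such union sites), was found at 7 of 36 clock gene sites, and CCCCGCCC at 10 of 25 promoter sites against 24.5% and 7 of 36 others against 878 of 20881 such union sites. The windows at the clock gene sites were also richer in G and C, with a median of 70.6% in promoters and 58.2% elsewhere against 67.2% and 52.7% over all union sites, and the part of base composition in the motif counts was not tested. CGGAAG was found at 3 of 25 promoter sites against 27.1% and 4 of 36 others against 1461 of 20881. At the 10 BHLHE40 sites the E-box was found at 0, the variant E-box, the AGGTCA, the AP-1 and the KLF/SP1 elements at 2 each, and the ETS element at 1. These motifs were not searched beyond 100 bp.

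Per 100 kb of window, the order of the median TAM levels was PER1 (12.5 peaks), BHLHE40 (8.97), NR1D1 (5.57), PER2 (3.42), NR1D2 (2.96), CRY2 (2.94), BHLHE41 (2.86), PER3 (1.55), CRY1 (1.48) and CLOCK (1.37). The range over the 6 TAM libraries of each gene overlapped that of the next in this order, so no neighbours were separated. In EtOH the median was 2.83 for BHLHE40, 1.72 for PER1, 0.739 for NR1D2 and 0.457 for CLOCK, and 0 for the remaining 6 genes. BHLHE40 took 60% of all clock gene peaks in S100A8 EtOH replicate 1 and 13.0% in S100A9 TAM replicate 2, which are the extremes over the 11 libraries. The treatments overlapped, with 20% in S100A8 EtOH replicate 2 and 23.5% in S100A8 TAM replicate 2.

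Within each protein, the EtOH and TAM counts did not overlap for 8 of the 9 clock genes other than BHLHE40, CRY1 being the exception, and for 45.7% of all genes tested. The difference is set beside the same value per 10000 peaks in the plot of differences.

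**Figure D4:**
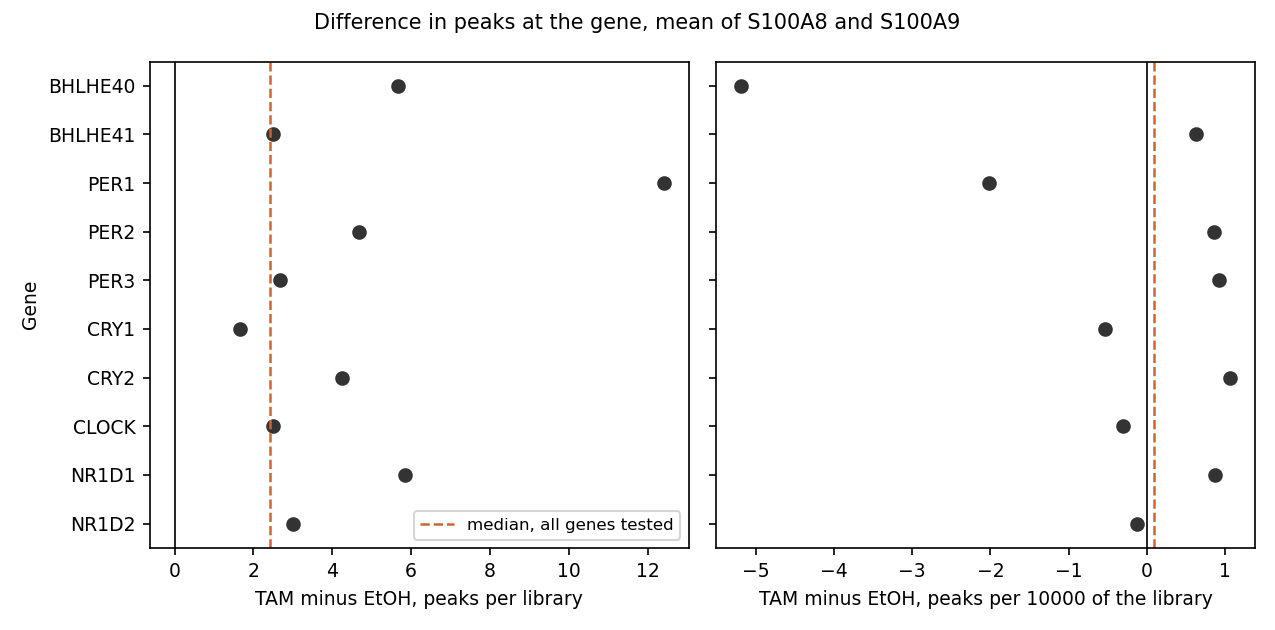
Difference in the number of peaks at each clock gene, TAM minus EtOH averaged over S100A8 and S100A9, as peaks per library (left) and as peaks per 10000 peaks of the library (right), with the median of all genes tested as a dashed line. All 10 genes lie above 0 on the left, and BHLHE40 (-5.195), PER1, CRY1, CLOCK and NR1D2 lie below 0 on the right.

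For promoter peaks, 0 of the 9 clock genes other than BHLHE40 passed the adjusted threshold, as did 0 of 10794 genes (0%), and 2265 genes had an unadjusted p under 0.05. The smallest p of 0.01 had an adjusted p of 0.19 (exact permutation), so no gene could pass. PER1 (p = 0.01), CRY2 (p = 0.03), PER2 (p = 0.04) and PER3 (p = 0.04) were below that unadjusted level by the exact permutation test. These 4 are to be read beside the 2265 of 10794. PER1, CRY2 and PER3 had no promoter peak in EtOH. They passed the filter through TAM alone and could only differ upward, so their p-values are no support.

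Between the tagged proteins, 0 of the 10 clock genes and 0 of 18126 genes were called at equal treatment (0% called). At an unadjusted p under 0.05 there were 130 genes, none of them a clock gene. The smallest p was 0.01, so after adjustment over 18126 genes a call needed many genes at that p. The 0 calls do not show that the proteins bound alike. The change from EtOH to TAM was also compared between S100A8 and S100A9. It was called different at 0 genes after adjustment, with 387 at an unadjusted p under 0.05, and p was 0.28 to 1 for the clock genes. For each protein alone the smallest p was 0.2 for S100A8 and 0.1 for S100A9, so neither could pass 0.05. Of the 61 clock gene sites, 33 (54.1%) were found in replicates of both proteins in TAM, 8 of S100A8 alone and 20 of S100A9 alone. The shares over all union sites were 42.8%, 17.4% and 39.5%. Among the 10 BHLHE40 sites, 7 were found for both proteins in TAM. These 10 are part of the 61, and their gene was chosen by its peaks in every list.

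By place, 25 of the 61 clock gene sites (41.0%) lay in a promoter of some protein-coding gene, against 31.1% of all union sites, and 13 of these were the clock gene's own promoters. No peak was called in any EtOH library at 40 of the 61 (65.6%), against 68.9% of all union sites. The 61 include the 10 BHLHE40 sites, whose gene was chosen by its peaks in every list. Of those 10, 5 had no EtOH peak. A peak in all 6 TAM libraries was found at 3 of the 51 sites of the clock genes other than BHLHE40 (5.88%), against 14.3%.

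Of a list of 20 other clock and clock-related genes, most were also higher in TAM. RORB had 0 peaks in every library, and of the remaining 19, 14 were called higher in TAM and 0 lower, beside the 67.6% of all genes, with a median difference of 2.83 against 2.42. Per 10000 peaks 0 of the 19 were called, with a median difference of -0.731 against 0.0976 over all genes tested. CSNK1D, a kinase that phosphorylates PER proteins, had 4 and 4 peaks in S100A8 EtOH and 20, 15 and 16 in TAM, and 1, 2 and 3 in S100A9 EtOH and 19, 18 and 23 in TAM (difference 15.5). With a CSNK1D TSS as the nearest, the counts were 0 and 1, then 7, 3 and 4 for S100A8, and 0, 0 and 0, then 4, 5 and 7 for S100A9. That difference was 4.75 (exact permutation p = 0.01, adjusted p = 0.052). RORA, a nuclear receptor that activates BMAL1 and whose gene body spans 741019 bp, differed by 8.08. CSNK1E differed by 7.17, and DBP, a D-box activator, by 6.42. By nearest TSS these 3 differences were 6.58, 5.67 and 1.08. BMAL1, the partner of CLOCK, had 0 and 1 peaks in S100A8 EtOH and 4, 2 and 2 in TAM, and 0, 0 and 0 in S100A9 EtOH and 4, 1 and 4 in TAM (difference 2.58). FBXW11 (adjusted p = 0.112), CIPC (adjusted p = 0.0897), NFIL3 (adjusted p = 0.0682), HLF (adjusted p = 0.139) and PPARGC1A (adjusted p = 0.607) did not pass the exact permutation test. On promoter peaks, 0 of the 17 tested passed, and CIPC, CSNK1E, DBP and SIRT1 had one in all 6 TAM libraries, as did 25.8% of all genes tested. In EtOH it was present in 3 of 5 libraries for CIPC, 2 for DBP, 1 for CSNK1E and 1 for SIRT1.

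At the thresholds of the rule, the peak nearest to the q limit from inside was one of PER2 in S100A8 TAM replicate 2, with a -log10 q of 7.0021, followed by peaks of BHLHE40, PER2 and CRY1 in replicate 3, all at 7.0094. Just outside were a peak of PER1 in S100A9 EtOH replicate 3 (6.9628) and peaks of BHLHE40 and PER1 in S100A8 TAM replicate 2 (6.9482 each). The summit farthest from its gene inside the 50 kb limit lay 49436 bp away (PER2), and the nearest beyond it 53670 bp away (CRY2).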

How the data were processed

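Peak lists of 11 anti-Flag ChIP libraries were analysed, and the other 13 samples (inputs and Pol II ChIP) were not used here. Per the labels and the study's methods, the authors used Bowtie2 (hg19, unique alignments) and then MACS2 for each replicate against its own input. The deposited lists give each peak's fold enrichment (a ratio), −log10 p-value, −log10 q-value and summit, at q up to 0.05. Versions are not given in the sources used here. The depth is unknown, so no counting interval can be given.

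Peaks with −log10 q of at least 7 were assigned to GENCODE version 44 genes lifted to hg19, whose table holds no nuclear tRNA genes. Counts per gene were compared by exact permutation, two-sided, with treatment permuted within protein (200 arrangements, smallest p 0.01) and Benjamini-Hochberg adjustment over genes with a peak in at least 2 libraries. Same-numbered replicates were not paired, since their deviations correlated by -0.0145 to 0.00489 (treatments) and -0.0167 to 0.00278 (proteins). The test was run on simulated counts in which unchanged genes had the same mean in both treatments. A difference in list length reaching all genes was not simulated. All 10 genes were named, with 20 other clock genes by counts, each gene's site called in most libraries and the 5 genes most like BHLHE40. Sequences of 5 of the 61 sites are printed, and the others are not reported here. Members, lists and motifs were chosen with earlier results of these data known. Python 3.11.15, numpy 2.4.6, pandas 2.3.3 and matplotlib 3.10.9 were used.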

Additional observations from a re-analysis of the deposited data

How the results depend on the processing

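With BHLHE40 included, 9 clock genes were called higher in TAM, and 8 without it. The peaks of BHLHE40 chose the set, so its own call is no support. These 9 were also called with union sites in place of peaks, without the gene filter and without each library in turn. With every deposited peak the count was 9 but CRY1 was called (exact permutation, adjusted p = 0.0317) and NR1D2 was not (adjusted p = 0.0644). The count was 6 within 10 kb, where BHLHE40 was not called (exact permutation, adjusted p = 0.0655). It was 5 at a −log10 q of at least 10, BHLHE40 among them. It was 0 at 20, with equal numbers of top peaks, in the gene body or promoter only, with the nearest TSS only and per 10000 peaks. Over all genes, 12246 of 18126 tested were called, against 6885 of 16939 at a −log10 q of 10 and 3646 of 15820 within 10 kb. The number was 0 under those 5 others, and 8348 to 9549 without 1 library (S100A8 EtOH replicates 9125 and 9254). The unadjusted counts under those 5 others were 1592, 148, 5566, 6107 and 3979 genes. The smallest p of 0.01 had an adjusted p (exact permutation) of 0.0525 with the nearest TSS only and 0.0594 in the gene body or promoter only. It was 0.0831 per 10000 peaks and 0.1465 at a −log10 q of 20. No gene could pass in these settings, so their 0 calls do not show that the difference was absent. Beyond this, the causes were not tested. In the replicate block, with same-numbered libraries exchanged as if paired, 0 genes were called for each comparison, since the smallest p was 0.0625, so it could not pass 0.05.

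Direction reversed with equal numbers of top peaks for BHLHE41 (-0.167), PER1 (-0.333), CRY1 (-0.333), CRY2 (-0.0833), CLOCK (-0.25) and NR1D2 (-0.25). Per 10000 peaks it reversed for BHLHE40 (-5.195), PER1 (-2.01), CRY1 (-0.528), CLOCK (-0.305) and NR1D2 (-0.118). For promoter peaks it reversed for NR1D2 with every deposited peak (-0.0833), and for BHLHE41 (-0.167) and CLOCK (-0.25) with equal numbers of top peaks. These differences did not pass the test. Under every alternative run, 0 genes or sites were called for promoter peaks, for S100A8 against S100A9 and for the percentile at sites called in all libraries. The smallest p in these tests was 0.01, or more with fewer arrangements, and a call after adjustment needed many genes or sites at it. These 0 calls therefore do not show that nothing differed.

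The lists hold no reads, so a gene without a peak was not shown to be unbound. The EtOH lists are the shorter ones, and list length and treatment cannot be told apart.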

Other observations

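The PER1 window differed from the other clock genes in one sequence feature, found after the sequences were seen. GGTTCGA, the start of the B box inside tRNA genes, occurred within 100 bp of the summit, on either strand, at 4 of the 17 PER1 sites and at 0 of the 44 sites of the other 9 genes. Over all union sites it occurred at 220 of 30322 (0.726%). The 4 sites lay outside the protein-coding and the named noncoding genes of the table used, which holds no nuclear tRNA genes. They lay at 36121, 30785, 17001 and -31137 bp from the 5′ end of PER1, and were called in 0 to 2 EtOH and 3 to 4 TAM libraries. Of these 4, 1 had PER1 as its nearest protein-coding TSS. Their part in the count of 17 sites at PER1 was not tested.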
